A study of Mus musculus with 16 samples.

Results

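The comparison sets 4 arrays of mouse osteoblasts transfected with the siRNA BICC1_1 against 4 arrays of osteoblasts transfected with BICC1_2, which are 8 of the 16 arrays in the series and were chosen by their titles. Both siRNAs were designed against Bicc1, and the genes described are those, among 9560 genes or unnamed probes detected on the arrays, whose level separated the 2 groups. RNA came from primary calvarial osteoblasts, cells that build the bone of the skull, of C57BL6/J neonates 3 to 9 days old and of mixed gender. The cells were plated at 150000 per well and transfected about a day later with Lipofectamine 2000, and total RNA was taken 48 hours after that and labelled with biotin for single-colour Illumina bead arrays. The remaining 8 arrays hold cells given a scrambled siRNA (SC, 4 arrays) or BICC1_3, a further siRNA to Bicc1 (4 arrays). They entered the fit so that each gene's spread was estimated over 4 groups. Sequences and doses of the siRNAs were not given in the sources used here. Nothing in the labels ties replicates to separate isolations of cells, so the p-values measure the spread among these arrays alone, and that spread may be technical.

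Bicc1 encodes an RNA-binding protein with KH domains and a SAM domain that binds selected mRNAs and controls their translation and stability, and it is best known from cystic kidney disease and from left-right patterning of the embryo. In bone it has been linked to osteoblast differentiation. An siRNA loads into an Argonaute protein and directs cleavage of a transcript it matches fully, and, as microRNAs do, it can also lower transcripts that match only its seed. Where BICC1_1 and BICC1_2 gave different levels of a gene, a different amount of Bicc1 left and a different siRNA sequence cannot be told apart by this design.

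The arrays had median intensities of 84.8 to 111.3 and detected 11990 to 12863 probes each, and the 8 arrays compared here correlated at 0.986 to 0.997 with each other. Of 8 osteoblast markers on the array, 6 were detected on all 8 arrays (Col1a1, Col1a2, Sp7, Alpl, Sparc and Pth1r), while Ibsp was detected on 1 and Bglap, the gene of the late marker osteocalcin, on none. Replicate 3 of BICC1_1 stood apart. Relative to the SC mean, the 57 genes for cytoplasmic ribosomal proteins had a median of -0.42 log2 there and the 32 genes for NADH dehydrogenase subunits one of -0.74, and on replicate 3 of BICC1_2 these were -0.09 and -0.22. On the other 6 arrays of the groups they lay at -0.04 to 0.01 and at -0.01 to 0.06. Replicate 1 of the arrays labelled BICC1_3, which enters only the estimate of the spread, lay at -0.73 and -1.44.

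Both siRNAs lowered their target, and BICC1_2 left less of it. The log2 intensity of Bicc1, read by 1 probe, was 9.51, 9.81, 9.88 and 9.42 on replicates 1 to 4 of BICC1_1 and 8.87, 9.04, 9.27 and 8.69 on those of BICC1_2, against 10.38 to 10.66 on the SC arrays. Every BICC1_1 array lay above every BICC1_2 array and below every SC array. The group means of 9.66 ± 0.22 and 8.97 ± 0.25 (SD, n = 4) correspond to 53.7% and 33.3% of the SC mean, and they differed by 0.69 log2 (SE 0.13, 95% interval 0.41 to 0.96, 1.61-fold, limma adjusted p = 0.0430). Arrays with the same replicate number were high or low together in both groups, so that the 4 differences between same-numbered arrays lay between 0.61 and 0.77. With these pairs as a block the adjusted p was 0.0131. The call rested on several arrays, since it held in 4 of the 16 fits that left out 1 array (difference 0.60 to 0.79 log2, adjusted p 0.0218 to 0.165). It was lost without any of SC replicates 1 to 3, BICC1_1 replicates 1 to 3, BICC1_2 replicates 1, 2 and 4, and BICC1_3 replicates 2 to 4.

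In all, 27 of 9560 genes, 0.282%, differed between the siRNAs at an adjusted p under 0.05, from limma's moderated test with Benjamini-Hochberg adjustment over all 9560. Of these, 14 were higher with BICC1_1 (0.146%) and 13 were lower (0.136%), and 26 have a gene symbol. Their differences were small, at 0.31 to 1.15 log2 in size with a median of 0.52, and those of 2 genes, Ergic1 and Cxcl1, exceeded 1. On all 27 the 4 and 4 arrays did not overlap, as was so for 436 genes in all (4.56%, of which 2.22% higher and 2.34% lower with BICC1_1). At an unadjusted p under 0.05 there were 610 genes (6.38%, of which 2.92% higher and 3.46% lower), where 478 are expected with no difference. Leaving out 1 array of the 2 groups left 3 to 12 calls, with the fewest without BICC1_2 replicate 2. Leaving out an SC array gave 8 to 21, and leaving out a BICC1_3 array gave 19 to 43, with the most, all 27 among them, without replicate 1 of BICC1_3. Over these 16 fits, Ergic1, Atg5 and Mrgprf passed in all 16, Col23a1 passed in 15, and the other 23 passed in 1 to 11. Matn4, 1 of the 27, was detected on no BICC1_1 array and passed the filter only through BICC1_2 and BICC1_3 arrays, so its call is no support for a difference.

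**Figure D1:**
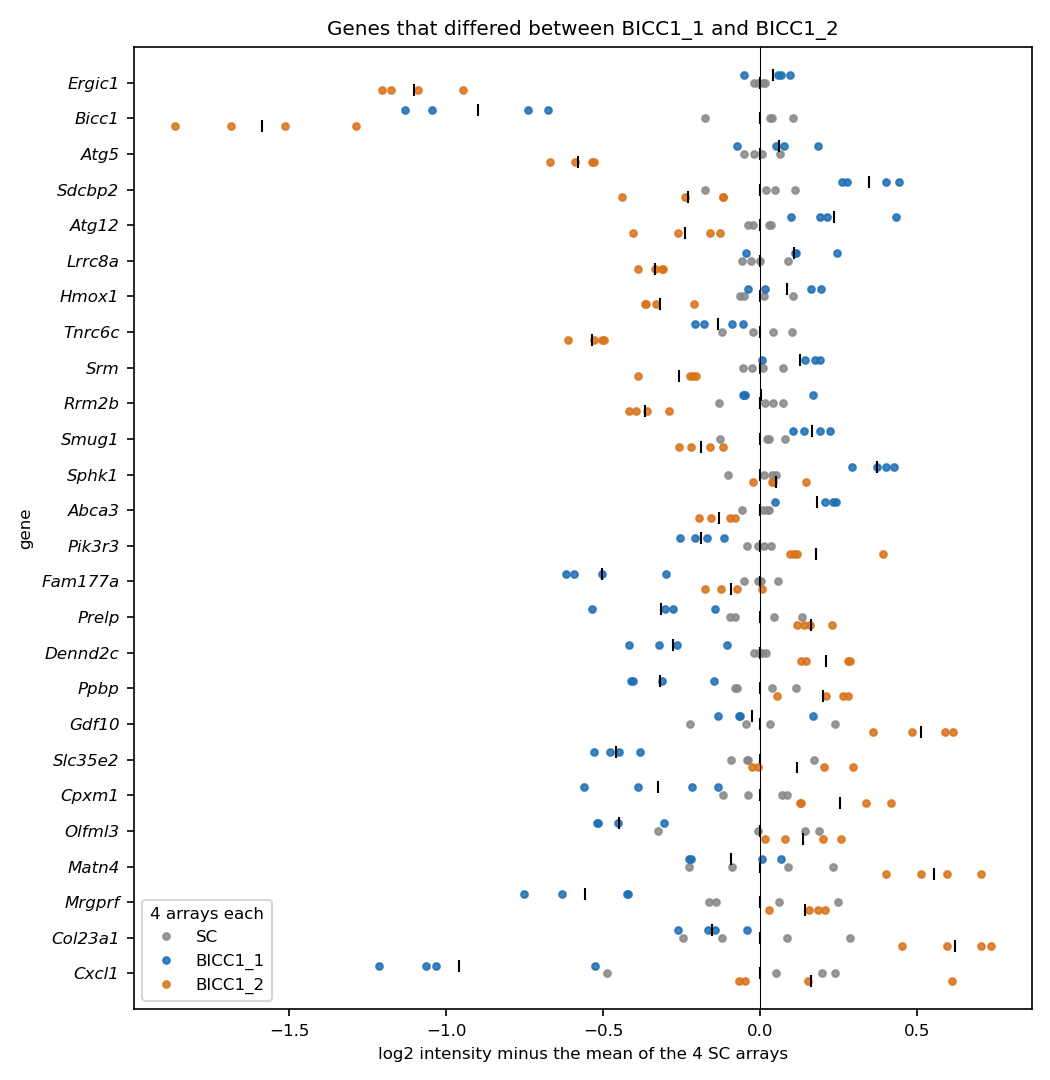
The 26 named genes past the test, in rows, with the log2 intensity of each array relative to the mean of the 4 SC arrays on the x axis. Points are arrays (grey SC, blue BICC1_1, orange BICC1_2) and black ticks are group means. The blue and orange points are separate in every row, and Bicc1 is the row in which both lie far to the left of SC.

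The SC mean lay between the means of the 2 siRNA groups for 23 of the 27 genes, as the plot of array values against SC shows. These genes were picked for a wide gap between the 2 groups, which by itself makes an SC mean inside the gap likely. Bicc1 and Tnrc6c were below SC with both siRNAs, Fam177a was as well, and Sphk1 was above it with both. Of the 14 genes higher with BICC1_1, 11 lay farther from SC with BICC1_2, and of the 13 lower genes, 10 lay farther from SC with BICC1_1. Shares over all genes are not given for these placements, so the counts only describe the 27. Few of these distances from SC passed a test of their own. With BICC1_1, 2 of the 27 differed from SC (Bicc1 and Fam177a), where 2 of 9560 genes did (0.0209%). With BICC1_2, 4 of them did (Ergic1, Bicc1, Atg5 and Tnrc6c), where 5 of 9560 did (0.0523%), and all of these were lower than SC. The 2 comparisons share the SC arrays.

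Replicate numbers were taken to pair the arrays of these groups, so each result was also read with the pairs as a block. The pairing is uncertain, since 5 of the 8 arrays correlated best with the same number in the other group. Over all genes, deviations of same-numbered arrays from their group means correlated at 0.18 to 0.61, with 0.61 for the replicate 3 arrays. BICC1_1 replicate 1 correlated at 0.198 with BICC1_2 replicate 2 and at 0.182 with its own number. BICC1_1 replicate 2 correlated at 0.296 with BICC1_2 replicate 1 and at 0.257 with its own number. BICC1_1 replicate 3 correlated at 0.70 with BICC1_3 replicate 1. The block for these pairs called 15 genes (0.157%), 6 higher (0.0628%) and 9 lower (0.0941%) with BICC1_1. Of the 27, 13 passed this block and 14 missed it, with adjusted p of 0.0558 to 0.102. All 4 same-number differences had the same sign for each of the 27, which must be so where the groups do not overlap. A block on the 8 arrays alone called 12 genes (0.126%), 4 higher (0.0418%) and 8 lower (0.0837%), and 8 of the 12 were among the 27. A block that ran through all 4 groups called 6 (0.0628%), 3 in each direction (0.0314%), all among the 27. It assumes a pairing that the other groups do not show. Same-numbered arrays correlated at -0.19 to 0.10 for SC with BICC1_1 and at -0.08 to 0.16 for SC with BICC1_2. For BICC1_3 they correlated at -0.59 to 0.52 with BICC1_1, -0.38 to 0.13 with BICC1_2 and -0.17 to 0.06 with SC. Ergic1, Atg5, Mrgprf, Col23a1 and Bicc1 passed without a block and with each of these blocks, Dennd2c missed only with the 8-array block, and Sdcbp2, Olfml3 and Cpxm1 missed only with the block through all groups.

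**Figure D2:**
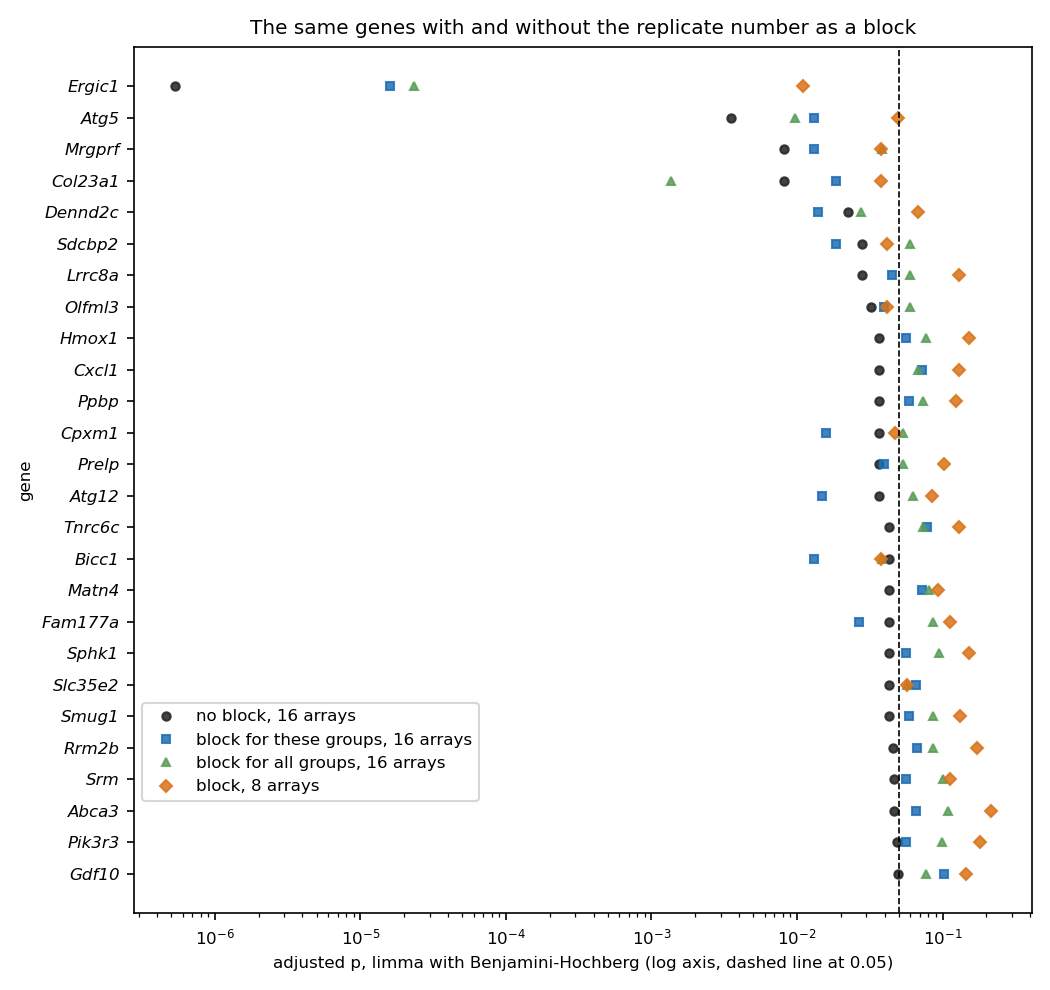
Adjusted p of the 26 named genes (x axis, log scale, dashed line at 0.05) with no block (black circles), with a block for the pairs of these 2 groups (blue squares), with a block through all groups (green triangles) and with a block on the 8 arrays alone (orange diamonds). Ergic1 lies farthest to the left under each of these fits, and most genes lie close to the line.

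Ergic1 separated the siRNAs most clearly. It encodes a membrane protein that cycles between the endoplasmic reticulum, the intermediate compartment and the Golgi. Its log2 intensity was 12.38, 12.34, 12.23 and 12.35 with BICC1_1, around the SC mean of 12.29, and 11.11, 11.34, 11.20 and 11.08 with BICC1_2. No BICC1_2 array came near the other groups, and the level there was 46.5% of SC against 103% with BICC1_1. The difference of 1.15 log2 (SE 0.07, 2.21-fold, adjusted p = 5.32e-07) was 1.00 to 1.27 in the 4 pairs, and it passed in all 16 fits that left out an array. Of 34 tested genes for cargo receptors and coats of the early secretory pathway, Ergic1 was the single call, 20 lay above 0 and 14 below, and the median difference was 0.01 log2, beside -0.004 over all genes. Over all genes, 0.146% were called higher and 48.7% lay above 0. This list and those below were chosen with earlier results of these data known, so a call within a list is partly built in. The next largest were Bet1, a SNARE of that pathway (-0.29, adjusted p = 0.496), and Sar1a, the GTPase that starts COPII coats (0.19, adjusted p = 0.940).

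Both partners of the Atg12-Atg5 conjugate, which attaches the autophagy protein LC3 to lipid, were higher with BICC1_1. Atg5 read 10.35, 10.32, 10.19 and 10.45 with BICC1_1 and 9.60, 9.73, 9.74 and 9.68 with BICC1_2, and SC lay at 10.22 to 10.33, among the BICC1_1 arrays. The difference was 0.64 log2 (SE 0.08, adjusted p = 0.00350), a further Atg5 probe gave 0.65, and the level with BICC1_2 was 66.8% of SC (adjusted p = 0.00797). Atg12 read 10.86, 10.95, 11.19 and 10.97 with BICC1_1 and 10.35, 10.60, 10.63 and 10.50 with BICC1_2, a difference of 0.47 (SE 0.08, adjusted p = 0.0366). The adjusted p was 0.0149 with the pair block, 0.0627 with the block through all groups and 0.0852 with the block on the 8 arrays (0.182 there without it), and the call held in 8 of the 16 fits that left out an array. Its SC arrays, at 10.72 to 10.79, lay between the groups. Atg16l1, the partner that places the conjugate on membranes, lay at 0.18 (adjusted p = 0.782). Atg5 and Atg12 were the calls among 26 tested core autophagy genes, of which 14 lay above 0 and 12 below with a median of 0.03 log2. Over all genes, 0.146% were called higher and 48.7% lay above 0.

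Tnrc6c encodes a scaffold of the GW182 family that Argonaute binds to recruit deadenylases during microRNA silencing. It read 8.20, 8.32, 8.23 and 8.36 with BICC1_1 and 7.91, 7.91, 7.88 and 7.80 with BICC1_2, all BICC1_2 arrays below all BICC1_1 arrays, with SC at 8.29 to 8.51. The difference was 0.40 log2 (SE 0.08, adjusted p = 0.0430, 0.0783 with the pair block). It was the call among 15 tested genes of the silencing machinery, 9 of them above 0, with a median of 0.08. Over all genes, 0.146% were called higher and 48.7% lay above 0. Its paralogue Tnrc6a lay at -0.15 (adjusted p = 0.790), and Pan2, a subunit of a deadenylase, at 0.14 (adjusted p = 0.934, 0.06 without BICC1_1 replicate 3).

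The remaining genes higher with BICC1_1 act in varied processes. Sdcbp2, which encodes the PDZ protein syntenin-2, read 7.76 to 7.95 with BICC1_1 and 7.06 to 7.38 with BICC1_2, with SC at 7.33 to 7.61, below BICC1_1 and overlapping BICC1_2 (difference 0.57, adjusted p = 0.0279), and a further detected probe gave 0.56. Lrrc8a, an essential subunit of the volume-regulated anion channel, differed by 0.44 (adjusted p = 0.0279), but a further probe, dimmer and detected on all arrays, gave -0.15. Hmox1, the stress-induced heme oxygenase, differed by 0.40 (11.85 ± 0.11 against 11.45 ± 0.07, adjusted p = 0.0366, 0.0558 with the pair block). Sphk1, the kinase that makes sphingosine-1-phosphate, was above SC on all BICC1_1 arrays, while its SC arrays overlapped BICC1_2. It read 10.28 to 10.41 with BICC1_1, 9.96 to 10.13 with BICC1_2 and 9.88 to 10.04 with SC (difference 0.32, adjusted p = 0.0430, 0.0558 with the pair block). The polyamine enzyme spermidine synthase, Srm, differed by 0.39 (adjusted p = 0.0467, 0.0558 with the pair block), and its 3 probes gave 0.35 to 0.39. Of genes for DNA precursors and repair, Rrm2b, a p53-induced subunit of ribonucleotide reductase, differed by 0.37 (adjusted p = 0.0460, 0.0669 with the pair block), and the uracil-DNA glycosylase gene Smug1 by 0.35 (adjusted p = 0.0430, 0.0592 with the pair block). Rrm2b was the call among 23 tested p53 targets, which had a median of -0.005, where 0.146% of all genes were called higher. The lipid transporter gene Abca3 showed the smallest difference of the 27, 0.31 (adjusted p = 0.0467, 0.0653 with the pair block).

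Cxcl1, a chemokine that attracts neutrophils through the receptor Cxcr2, had the largest difference among the genes called lower with BICC1_1. It read 7.29, 7.14, 7.32 and 7.83 with BICC1_1, 8.51, 8.97, 8.31 and 8.29 with BICC1_2 and 7.87 to 8.59 with SC. BICC1_1 stood at 51.4% of the SC mean and below every SC array, while BICC1_2 lay within the range of SC but for its replicate 2. The difference was -1.12 log2 (SE 0.21, 95% interval -1.56 to -0.68, adjusted p = 0.0366), it ran from -1.83 to -0.46 in the 4 pairs, and the adjusted p was 0.0722 with the pair block. Ppbp, which encodes the precursor of the related chemokine CXCL7, read 8.50, 8.51, 8.76 and 8.60 with BICC1_1 and 9.18, 9.19, 9.12 and 8.96 with BICC1_2, with SC at 8.83 to 9.03, above BICC1_1 and overlapping BICC1_2. It differed by -0.52 (SE 0.10, adjusted p = 0.0366, 0.0592 with the pair block), and a further probe gave -0.65. Cxcl5, a further neutrophil chemokine gene, read 5.78, 5.12, 6.27 and 6.61 with BICC1_1, where 3 of the 4 arrays detected it, and 6.76, 7.71, 7.37 and 7.08 with BICC1_2, with SC at 6.88 to 7.10. Its difference of -1.29 (SE 0.27) was the largest of the 3 and missed the test (adjusted p = 0.0634).

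Cxcl5, Ppbp, Pf4 and Cxcl1 lie in that order, among other chemokine genes, in a cluster on mouse chromosome 5. Pf4, the platelet factor 4 gene between Ppbp and Cxcl1, gave -0.28 (adjusted p = 0.992). In a list of chemokine genes that does not hold Ppbp or Pf4, 8 of 15 tested lay above 0 and 7 below, with a median of 0.02. Cxcl1 was the call of that list, where 0.136% of all genes were called lower. Promoters are shown for Cxcl1 and Ppbp because these genes of the cluster, which are not next to each other, were both called lower with BICC1_1. Each line gives the 250 bases before the RefSeq start of the gene in GRCm38.p6, on the plus strand.
Cxcl1, chr5:90890995-90891244: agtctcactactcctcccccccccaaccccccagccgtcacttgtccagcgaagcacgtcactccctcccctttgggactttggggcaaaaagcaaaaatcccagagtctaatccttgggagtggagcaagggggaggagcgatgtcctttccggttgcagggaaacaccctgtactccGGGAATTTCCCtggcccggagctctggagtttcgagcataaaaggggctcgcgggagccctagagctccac
Ppbp, chr5:90768268-90768517: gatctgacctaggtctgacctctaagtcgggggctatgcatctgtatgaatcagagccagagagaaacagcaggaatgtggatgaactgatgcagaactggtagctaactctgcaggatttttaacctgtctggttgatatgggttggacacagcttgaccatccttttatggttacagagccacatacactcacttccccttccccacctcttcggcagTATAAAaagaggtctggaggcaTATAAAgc
Capitals in Cxcl1 mark overlapping matches to the NF-kB consensus, 71 to 62 bases before the start on the strand shown and 70 to 61 bases before it on the other. Capitals in Ppbp mark the TATA motif TATAAA at 30 to 25 and at 8 to 3 bases before the start. Both strands were searched. Of 32851 promoter windows of the same length, 7.25% hold the NF-kB consensus and 12.4% hold TATAAA. A match is a run of letters and not a measured site.

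**Figure D3:**
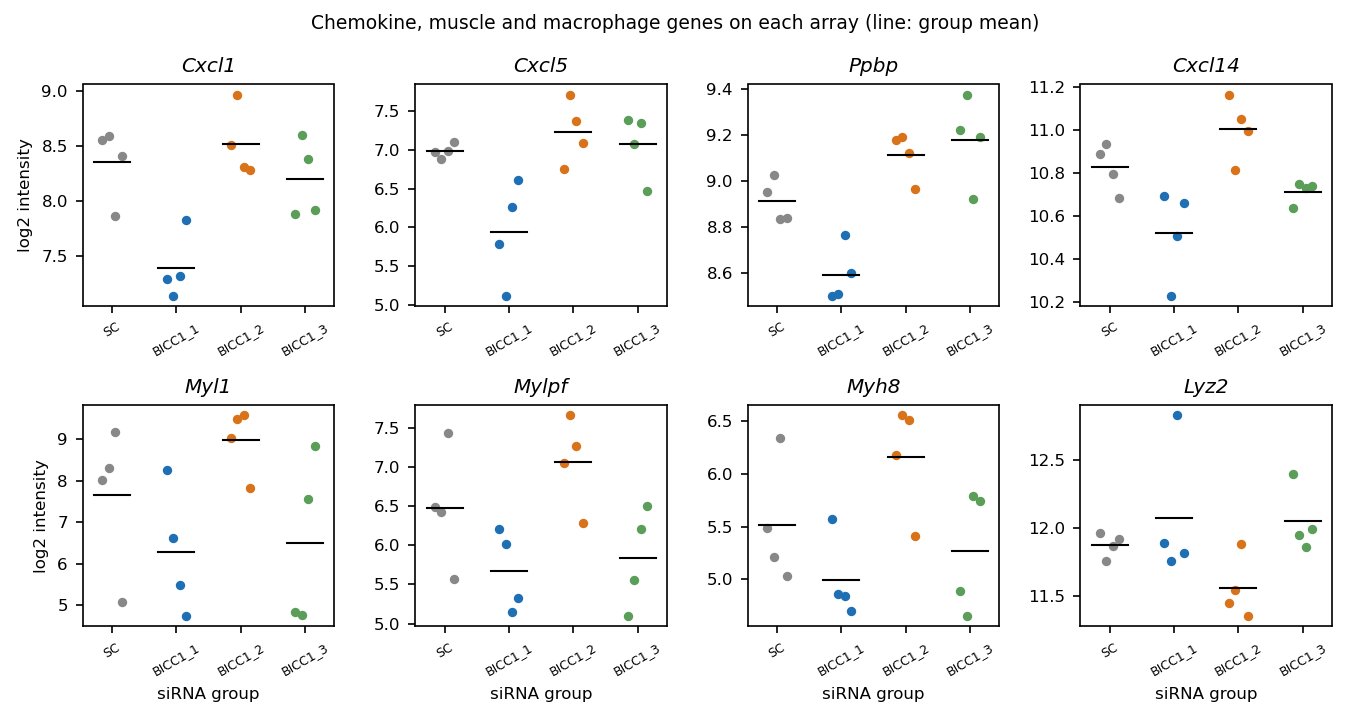
Log2 intensity (y axis, a scale of its own in each panel) of 8 genes on every array of the 4 groups, with group means as lines. Cxcl1, Cxcl5 and Ppbp are lowest with BICC1_1, Myl1, Mylpf and Myh8 are high on most BICC1_2 arrays and spread widely within SC, and Lyz2 has 1 high BICC1_1 array.

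Several genes for matrix or secreted proteins were lower with BICC1_1. They are grouped here after their values were seen, and no enrichment was tested. Col23a1, a transmembrane collagen, read 5.81, 5.59, 5.71 and 5.69 with BICC1_1, 6.59, 6.55, 6.45 and 6.30 with BICC1_2 and 5.60 to 6.14 with SC, so that BICC1_2 was the group outside the range of SC (difference -0.77, SE 0.11, adjusted p = 0.00812). The call was lost without BICC1_2 replicate 2 (adjusted p = 0.0553). Gdf10, a ligand of the TGF-beta superfamily also named BMP3b, likewise read 7.24 to 7.54 with BICC1_1, within the SC range of 7.15 to 7.61, and 7.73 to 7.99 with BICC1_2 (difference -0.54, adjusted p = 0.0491, 0.102 with the pair block). Matn4, the cartilage matrix gene matrilin-4, was not well above background on any BICC1_1 or SC array and was detected on 3 of 4 BICC1_2 arrays. It entered the test only through those arrays and 2 BICC1_3 arrays, so that its place among the 27 is no support for a difference. Its measured means were 5.06 with BICC1_1 and 5.70 with BICC1_2, and for the same reason its limma adjusted p (0.0430, 0.0722 with the pair block) is no support. The BICC1_2 mean was 1.11-fold above the lowest signal of a detected probe on the BICC1_1 arrays.

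For Prelp, Olfml3 and Cpxm1, the mean of BICC1_1 was farther from SC than that of BICC1_2. Prelp, a small leucine-rich proteoglycan that binds collagen, read 11.86, 11.47, 11.70 and 11.72 with BICC1_1 and 12.12 to 12.23 with BICC1_2 (difference -0.48, adjusted p = 0.0366), with SC at 11.91 to 12.14. Olfml3, a secreted olfactomedin-like protein, read 8.67 to 8.88 and 9.20 to 9.44 (difference -0.59, adjusted p = 0.0324). Cpxm1, a secreted member of the carboxypeptidase family, was detected on 3 of 4 BICC1_1 arrays and differed by -0.58 (adjusted p = 0.0366). Of 32 tested collagen and bone matrix genes on a list that holds none of these calls, 14 lay above 0 and 18 below, with a median of -0.04. Of the 32, 0 passed the limma test, while 4 had an unadjusted p under 0.05, all lower, beside 3.46% of all genes. The 3 farthest from 0 were the proteoglycan genes Lum (-0.52, adjusted p = 0.687, -0.34 without BICC1_1 replicate 2) and Fmod (-0.44, adjusted p = 0.330) and the fibrillar collagen gene Col3a1 (-0.47, adjusted p = 0.369).

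Among the other lower genes, Mrgprf encodes an orphan G protein-coupled receptor. It read 7.19, 7.07, 7.40 and 7.40 with BICC1_1, 7.85 to 8.03 with BICC1_2 and 7.66 to 8.07 with SC. All BICC1_1 arrays lay below all others of these groups, the difference was -0.70 (SE 0.10, adjusted p = 0.00810) and it passed in all 16 fits that left out an array. Dennd2c, which encodes an activator of Rab GTPases, differed by -0.49 (7.50 ± 0.13 against 7.99 ± 0.08, adjusted p = 0.0223), with SC between at 7.76 to 7.80. Fam177a differed by -0.41 (adjusted p = 0.0430), with BICC1_1 at 10.78 to 11.10 and the BICC1_2 range of 11.23 to 11.41 overlapping SC, at 11.35 to 11.46, and a further probe gave -0.15. Pik3r3, a regulatory subunit of phosphoinositide 3-kinase, differed by -0.36 (adjusted p = 0.0486, 0.0558 with the pair block). Slc35e2, a putative solute carrier, differed by -0.58 (adjusted p = 0.0430, 0.0653 with the pair block), while a further probe, detected on all arrays, gave 0.03.

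The genes nearest the threshold were Srm, Pik3r3 and Gdf10 inside it, at adjusted p of 0.0467, 0.0486 and 0.0491. Just outside were Vegfd, a lymphatic growth factor gene (-0.35, adjusted p = 0.0547), Csgalnact1, an enzyme of chondroitin sulfate synthesis (-0.63, adjusted p = 0.0574), and Stx3, a plasma membrane syntaxin (0.37, adjusted p = 0.0618). Outside the 27, 5 genes passed the pair block or the block on the 8 arrays, all 5 lower with BICC1_1. The chemokine gene Cxcl14 read 10.69, 10.23, 10.51 and 10.66 against 11.16, 10.81, 11.05 and 10.99, and its adjusted p was 0.0618 without and 0.0170 with the pair block. Of 29 alternatives without a block, it passed in 5. Cdsn, known as an adhesion protein of the skin, read 6.76, 5.98, 6.37 and 6.72 against 7.71, 6.73, 7.12 and 7.27, so that the groups overlapped while each pair differed in the same direction (adjusted p = 0.181 without and 0.0184 with the pair block, past in 0 of the 29). Slc1a3, a glutamate transporter gene (-0.70), Ly6c1, a surface antigen gene (-0.58), and Ecrg4, a secreted peptide precursor gene (-0.94), each passed with the block on the 8 arrays (adjusted p = 0.0415) and missed the test over 16 arrays (adjusted p = 0.0634, 0.194 and 0.271). On the 8 arrays without the block their adjusted p was 0.102, 0.0208 and 0.182, so that Ly6c1 passed there as well, and they passed in 5, 4 and 1 of the 29 alternatives without a block.

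Across 29 gene lists, which together held 611 tested genes, 5 genes were called higher with BICC1_1 and 1 lower, all named above. Over all genes, 0.146% were called higher and 0.136% lower, and 48.7% lay above 0. The lists were chosen with earlier results known and leave out lower calls such as Ppbp, Col23a1 and Prelp. The split of 5 and 1 therefore reflects which genes were listed. The other 24 lists held 0 called genes by the limma test. Of their 499 tested genes, 44 had an unadjusted p under 0.05, 16 higher and 28 lower. That is 8.82% of them, 3.21% higher and 5.61% lower, beside 6.38%, 2.92% and 3.46% of all genes. List medians ran from -0.37 to 0.14 log2, as the plot of the lists shows, with 12 above 0 and 17 below. Of 23 tested Wnt targets and regulators 16 lay below 0, with a median of -0.09, and the largest were the secreted antagonist gene Sfrp1, which read 6.58 to 6.75 with BICC1_1 and 7.06 to 7.56 with BICC1_2 (-0.60, adjusted p = 0.0634), the inhibitor gene Nkd2 (-0.42, adjusted p = 0.0634) and the Wnt-induced gene Ccn5 (-0.50, adjusted p = 0.162). Of 13 osteoblast identity and mineralisation genes 10 lay below 0, with a median of -0.10, led by the mineralisation inhibitor gene Mgp (-0.38, adjusted p = 0.980), which read 12.97, 13.20, 12.21 and 13.01 with BICC1_1 and 12.99 to 13.35 with BICC1_2. Without BICC1_1 replicate 3 its difference was -0.17. Of 30 BMP and TGF-beta genes 18 lay below 0, with a median of -0.07, led by the TGF-beta-induced matrix gene Tgfbi (-0.37, adjusted p = 0.256) and the BMP antagonist gene Sostdc1 (-0.32, adjusted p = 0.330). Of 9 polycystin and Bicc1 partner genes 4 lay above 0, with differences of -0.12 to 0.14 and a median of -0.03.

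**Figure D4:**
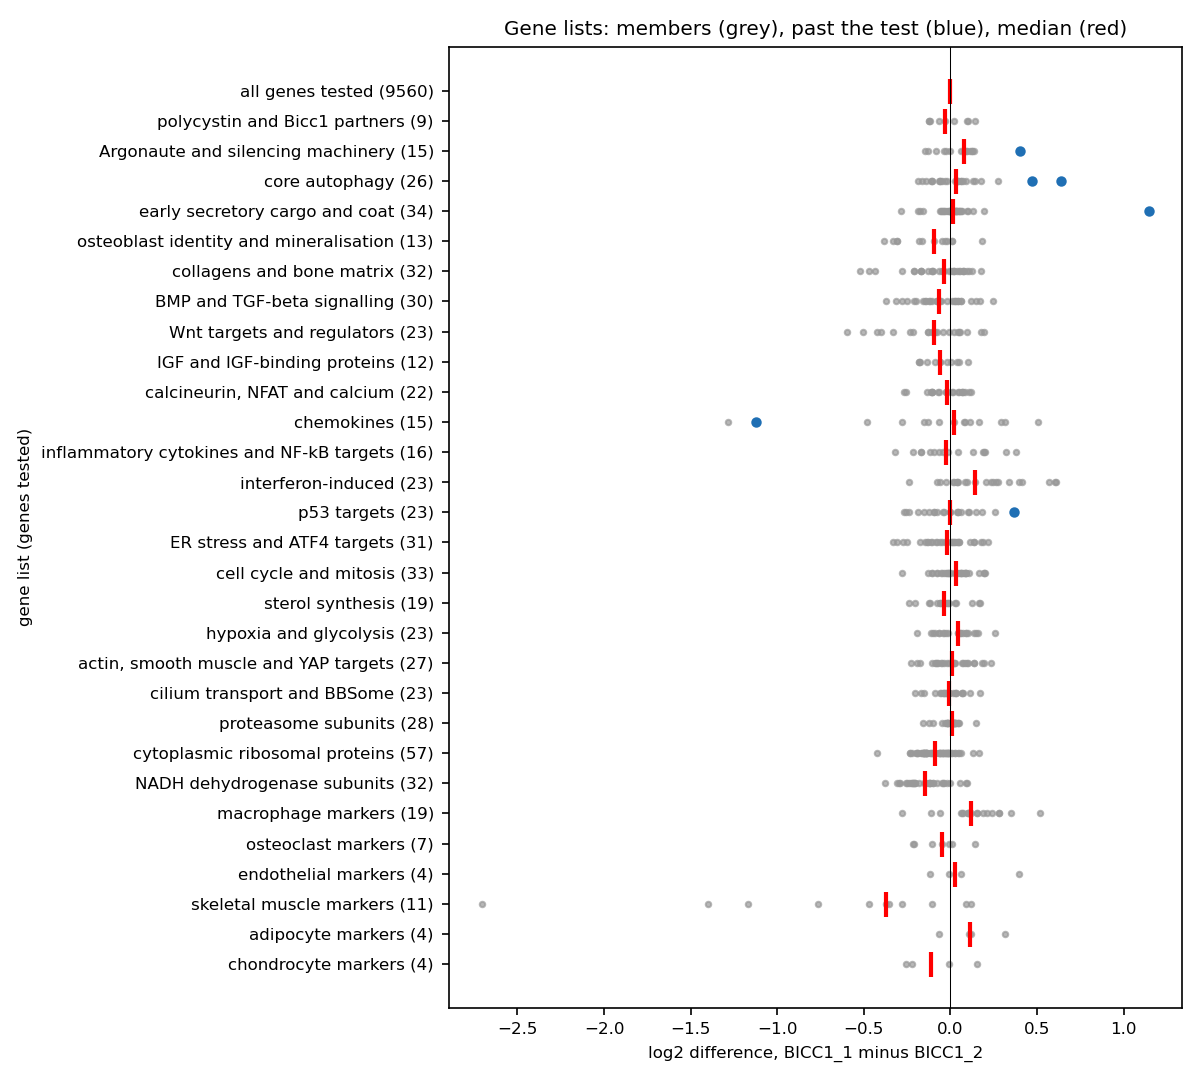
Log2 difference, BICC1_1 minus BICC1_2, of each tested member of the gene lists (grey points, blue where past the test) with the list median in red and the number of genes tested in brackets. Most medians lie near the line at 0, and the skeletal muscle list reaches farthest, down to -2.71.

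By limma's test, 0 genes of the skeletal muscle and macrophage lists passed, and their values are given because both cell types can be present in calvarial cultures. In bulk RNA, fewer cells of a type and less RNA per cell cannot be told apart. Of 11 tested skeletal muscle genes, 9 lay below 0 with a median of -0.37, and 6 of these had an unadjusted p under 0.05. Over all genes, 48.7% lay above 0, and 3.46% were lower at an unadjusted limma p under 0.05. Myl1, a fast-muscle myosin light chain gene, read 8.25, 6.64, 5.48 and 4.74 with BICC1_1 and 9.04, 9.49, 9.58 and 7.83 with BICC1_2 (-2.71, adjusted p = 0.519), while the SC arrays ranged from 5.09 to 9.18. Mylpf read 6.21, 6.01, 5.14 and 5.32 against 7.06, 7.66, 7.27 and 6.29 (-1.40, adjusted p = 0.256), and Myh8 differed by -1.17 (adjusted p = 0.265). The groups overlapped for Myl1 and Myh8 and did not for Mylpf, which was among the genes named for lack of overlap. Over all genes, 4.56% did not overlap, 2.34% being lower with BICC1_1. Mylpf was detected on 2 of 4 BICC1_1 arrays and Myl1 on 6 of the 8 arrays. On BICC1_1 replicates 3 and 4, both genes lay below the lowest signal of a detected probe (5.50 and 5.57 log2). The sizes of these differences are therefore uncertain. Of the 7 muscle markers used to check the cell type, Acta1 was detected on all 8 arrays, Ckm and Tnnt3 on none, and their summed level was 11.06 to 11.29 log2 with BICC1_1, 11.24 to 11.45 with BICC1_2 and 10.73 to 11.18 with SC.

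Macrophage genes lay the other way, 16 of 19 above 0 with a median of 0.12, and 3 of them had an unadjusted p under 0.05. Over all genes, 48.7% lay above 0, and 2.92% were higher at an unadjusted limma p under 0.05. The lysozyme gene Lyz2 read 11.89, 11.75, 12.83 and 11.81 with BICC1_1 and 11.45, 11.54, 11.88 and 11.35 with BICC1_2 (0.52, adjusted p = 0.536), and Lyz1 differed by 0.35 (adjusted p = 0.585). The high BICC1_1 value is that of replicate 3, without which Lyz2 differed by 0.27 and Lyz1 by 0.20, and without replicate 3 of both groups the median of the list was 0.14. Of 8 macrophage markers 7 were detected on all 8 arrays and Ptprc on none, and their summed level was 13.90 to 14.64 log2 with BICC1_1, 13.65 to 14.03 with BICC1_2 and 13.84 to 14.12 with SC. Markers of further types were mixed. Of 7 endothelial markers, Esam and Ramp2 were detected on all 8 arrays and Pecam1, Cdh5, Kdr and Emcn on none. Of 6 adipocyte markers, Pparg and Lpl were detected on all 8 and Adipoq, Fabp4 and Plin1 on none. Of 6 osteoclast markers, Ctsk and Mmp9 were detected on all 8 and Calcr, Ocstamp and Dcstamp on none. Of 6 chondrocyte markers, Sox9, Col2a1 and Col11a2 were detected on all 8 and Acan and Matn1 on none. The part of other cell types in the chemokine and matrix results was not tested.

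Without replicate 3 of both groups, the medians of 8 of the 29 lists moved by over 0.05 log2, and those of 3 changed sign. Of 23 interferon-induced genes 19 lay above 0 with a median of 0.14, which was -0.04 without those arrays. Usp18, an inhibitor of interferon signalling that interferon itself induces, read 6.00, 5.62, 10.14 and 5.78 with BICC1_1 and 5.71 to 6.80 with BICC1_2, and Ifit3 and Oasl2 likewise stood highest on replicate 3 of BICC1_1, as the plot of single arrays shows. Of 57 cytoplasmic ribosomal protein genes 48 lay below 0 with a median of -0.09, which was -0.03 without those arrays, and of 32 NADH dehydrogenase genes 29 lay below 0 with a median of -0.15, which was -0.02 without them. Of the short lists of 4 chondrocyte, 4 adipocyte, 7 osteoclast and 4 endothelial genes, the medians went from -0.11 to -0.03, from 0.11 to 0.18, from -0.05 to -0.11 and from 0.03 to 0.08. The silencing list went from 0.08 to 0.03, core autophagy from 0.03 to 0.00025, and the early secretory list changed sign, from 0.01 to -0.002, as did the inflammatory cytokine list, from -0.03 to 0.01. Leaving out both replicate 3 arrays left 5 of the 9560 genes past the test, 4 of them among the 27 (Ergic1, Atg5, Mrgprf and Lrrc8a), and leaving out replicate 1 of BICC1_3 as well gave 39, 16 of them among the 27. The part of whatever set these arrays apart in the differences of single genes was not tested.

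**Figure D5:**
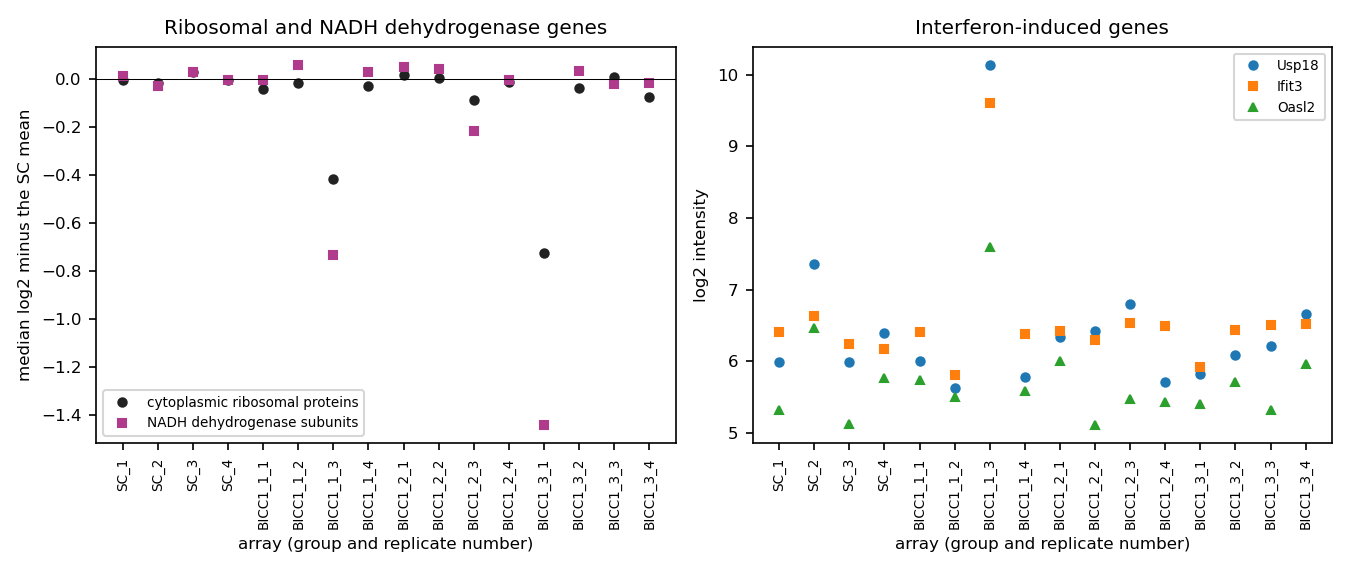
Left, the median log2 intensity of cytoplasmic ribosomal protein genes and of NADH dehydrogenase subunit genes on each of the 16 arrays, minus the SC mean. Right, the log2 intensity of Usp18, Ifit3 and Oasl2 on the same arrays. Replicate 3 of BICC1_1 and replicate 1 of BICC1_3 lie low on the left, and replicate 3 of BICC1_1 lies high on the right.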

How the data were processed

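The authors deposited a linear-scale mean bead intensity for each probe on each array, before any normalisation across arrays according to the file headers. The deposited detection column carries a p-value heading but is near 1 where probes are bright, and 1 minus it was used as the detection p. The submitters' processing notes name GenomeStudio, and a genome build is not given in the sources used here. The authors' second deposited table holds log2 values whose quantiles are equal on all arrays and whose transform is not stated. It was tried as an alternative only.

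Background correction and quantile normalisation used neqc (offset 16) of limma 3.58.1 in R 4.3.3. Of 25697 probes, 23978 carried 1 symbol in the platform annotation, 0 several and 1719 none, and 23962 named probes were matched by Entrez identifier to a RefSeq gene table of GRCm38.p6, which changed 0 symbols. Probes with a detection p under 0.05 on at least 4 arrays were kept (12802), and the brightest probe stood for each gene, which left 9560 to test, 728 of them without a symbol. A linear model over the 4 groups and 16 arrays gave BICC1_1 minus BICC1_2 (lmFit and eBayes, 12 residual degrees of freedom), Benjamini-Hochberg adjusted over all 9560 with a threshold of 0.05. The number of arrays limits the precision: the median standard error was 0.108 log2. Intervals are 95% intervals, and the fit was tested on simulated data.

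Replicate numbers come from the sample titles. Deviations from group means correlated at 0.18, 0.26, 0.61 and 0.22 for the 4 same-numbered pairs of BICC1_1 and BICC1_2 and at -0.42 to 0.30 for the 12 other pairs, so the numbers were taken to pair these groups. Among replicates 1, 2 and 4 alone, pairs of different number ran from -0.17 to 0.30. The same-number values of 0.18, 0.26 and 0.22 lie within that range, so the contrast rests on the replicate 3 arrays. A block for these pairs alone, and a fit without replicate 3 of both groups, were chosen after seeing the data. Named genes were Bicc1, all genes past the test, genes without overlap filling 15 in each direction, and in each list the calls and the 3 largest differences; genes past only in other fits or just outside the threshold were named after their values were seen. The members and lists were chosen with earlier results of these data known. Matched RefSeq promoter windows were found for 2 of 3 chemokine genes searched.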

Additional observations from a re-analysis of the deposited data

Results flagged for a closer look

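Within a group of 4 arrays, a highest or lowest value was set apart where its gap to the nearest array, as a share of the group's range, exceeded Dixon's critical value. This was tested 264 times over the named genes and list medians and marked 16. Independent tests at 1 in 20 would mark about as many by chance. These tests are not independent, since they share arrays and many genes were named for large differences, which 1 array can make. The total therefore cannot be weighed against chance. Of the 16 marks, 8 came from replicate 3 of BICC1_1. On that array the interferon-induced genes Usp18 (10.1 log2, the other 3 arrays 5.62 to 6.00), Ifit3 (9.60, others 5.80 to 6.41) and Oasl2 (7.60, others 5.50 to 5.74) were high, as was the lysozyme gene Lyz2 (12.8, others 11.8 to 11.9). On the same array Igf2r was low (9.92, others 10.2 to 10.3), and so were the list medians, relative to the mean of the 8 arrays, of ribosomal protein genes (-0.36, others 0.03 to 0.05), of NADH dehydrogenase genes (-0.66, others 0.11 to 0.16) and of osteoblast genes (-0.12, others -0.04 to -0.02).

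The other marks fell on other arrays. Of genes past the test, Rrm2b was high on BICC1_1 replicate 2 (9.10, others 8.88 to 8.88), and on BICC1_2 replicate 4 Srm was low (12.1, others 12.2 to 12.2) and Pik3r3 high (10.7, others 10.4 to 10.5). Cebpa was low on BICC1_1 replicate 4 (5.60), and Pdk1 (7.40) and Itgb3 (5.55) were low on BICC1_2 replicate 2. The medians of BMP and TGF-beta genes on BICC1_2 replicate 3 (0.071) and of endoplasmic reticulum stress and ATF4 targets on BICC1_2 replicate 4 (0.10) were high.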

How the results depend on the processing

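Over 34 alternatives, 27 of the 27 called genes kept their direction in each alternative that tested them, and 0 passed in every one. Leaving out arrays or adding a block could not reverse a direction, because the 2 groups did not overlap on any of the 27. Ergic1, Atg5 and Mrgprf each passed in 33, missing only with the replicate block on the 8 arrays without replicate 3 of both groups, which has 6 arrays and called 0 genes (0 higher and 0 lower, 978 at an unadjusted p under 0.05). The replicate block changed the count of 27 to 6 (3 higher and 3 lower) through all groups, to 15 (6 and 9) for the pairs of these groups alone and to 12 (4 and 8) on the 8 arrays alone, where no block gave 5 (2 and 3). As a random effect it gave 21. Array weights gave 71 (35 and 36). Leaving out both replicate 3 arrays gave 5 (3 and 2), and leaving out 3 arrays gave 39 with 25 higher. Leaving out 1 array gave 3 to 43 calls, 2 to 19 higher and 1 to 24 lower. Single omissions gave 8, 9, 16 and 21 for SC replicates 1 to 4, 8, 6, 8 and 12 for BICC1_1, 7, 3, 9 and 5 for BICC1_2, and 43, 20, 19 and 19 for BICC1_3. The difference in Bicc1 passed in 17 alternatives and missed in 17. It was 0.60 to 0.79 log2 when 1 array was left out (limma adjusted p 0.0218 to 0.165). It was 0.69 on the 8 arrays alone (0.186, and 0.0376 with the replicate block) and with no filter (0.0588), and 0.53 in the authors' log2 table (0.0503). Without both replicate 3 arrays it was 0.71 (0.0817, and 0.201 with the replicate block on the 6 arrays left in the 2 groups). Differences of 13 called genes shrank by over 1.5 times in the authors' log2 table, of 3 dim genes (Col23a1, Cpxm1 and Matn4) without background correction and with an offset of 50, and of Lrrc8a and Slc35e2 with the mean of a gene's probes. Where 1 setting changed a call, the cause was not tested. Median scaling, loess, other filters and a trended prior gave 23 to 35 calls.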
